A study of Homo sapiens with 6 samples.

Results

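The genes described here make fatty acids, desaturate and elongate them, and build them into membrane phospholipids, and all are known targets of the transcription factor SREBP1, of the nuclear receptor LXR, or of both. They were chosen by symbol, as the probe sets whose platform gene symbol is ACLY, ACACA, FASN, SCD, FADS1, FADS2, ELOVL5, ELOVL6, LPCAT3 or ACSL3. Of these 10 genes, 8 had a probe set, 1 each, among the 21448 probe sets tested, and no probe set carried the symbol FADS1 or ACSL3, which are therefore not analysed here. The cells were T24, a human line grown from a bladder carcinoma. Both groups were kept without serum for 12 h and then received either vehicle (3 arrays) or 20 µg/mL of oxidized low-density lipoprotein, ox-LDL (3 arrays), for 24 h. T24 is a single line, and the labels name no separate cultures, so all p-values measure only how far these samples differ, and that spread may be technical. A free-text field speaks of siRNA instead, against the titles, sources and treatments; EHMT2, which encodes the G9a named there, was not called (log2 difference 0.37, SE 0.12, limma adjusted p = 0.125).

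Cytosolic citrate is split by ACLY into acetyl-CoA, ACACA carboxylates this to malonyl-CoA, and FASN joins the units into palmitate. ELOVL6 lengthens saturated chains and SCD places the first double bond in them, while FADS2 and ELOVL5 desaturate and elongate dietary polyunsaturated fatty acids. LPCAT3 inserts polyunsaturated chains into lysophospholipids, which changes the composition of membranes. High sterol levels keep SREBP proteins from leaving the endoplasmic reticulum, and LXR is switched on by oxidized sterols, so a cholesterol-bearing particle can act on these genes through either factor, and SREBF1, the gene of SREBP1, is itself an LXR target.

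With ox-LDL, the desaturases SCD and FADS2 fell by 0.50 and 0.51 on the log2 scale (1.41-fold and 1.42-fold), and the phospholipid acyltransferase LPCAT3 rose by 0.69 (1.61-fold). The enzymes that make palmitate did not pass the test: the log2 differences were -0.06 for ACLY, 0.15 for ACACA and -0.20 for FASN. Neither elongase passed, with log2 differences of -0.11 for ELOVL6 and -0.02 for ELOVL5. In all, 1 gene was higher, 2 were lower and 5 did not pass (limma, Benjamini-Hochberg adjusted p under 0.05 over all probe sets), where 6.77% of all probe sets passed, 3.48% higher and 3.29% lower. The median log2 difference of the 8 genes was -0.08, against -0.03 over all probe sets.

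The promoters of the 3 genes that passed are shown because SREBP proteins act on promoters together with factors that bind CCAAT and GC boxes. The sequences are from RefSeq on GRCh38.p14, the 250 bases before the start of transcription, read along the strand of the gene. Capitals mark a CCAAT box (CCAAT, or ATTGG on the other strand) or a GC box (GGGCGG, or CCGCCC on the other strand). SCD lies at chr10:100346983-100347232 on the plus strand, LPCAT3 at chr12:7018477-7018726 on the minus strand and the downstream of the 2 FADS2 starts at chr11:61816154-61816403 on the plus strand.
SCD: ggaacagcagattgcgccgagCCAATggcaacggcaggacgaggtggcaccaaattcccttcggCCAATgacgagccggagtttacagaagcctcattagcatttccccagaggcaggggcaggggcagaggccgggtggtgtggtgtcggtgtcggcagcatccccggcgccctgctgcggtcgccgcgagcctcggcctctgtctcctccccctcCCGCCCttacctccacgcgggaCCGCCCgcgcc
FADS2: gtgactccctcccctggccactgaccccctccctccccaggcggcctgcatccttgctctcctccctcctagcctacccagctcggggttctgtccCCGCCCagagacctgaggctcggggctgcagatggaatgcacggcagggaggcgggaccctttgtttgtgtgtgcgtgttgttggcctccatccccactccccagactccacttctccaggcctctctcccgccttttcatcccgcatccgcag
LPCAT3: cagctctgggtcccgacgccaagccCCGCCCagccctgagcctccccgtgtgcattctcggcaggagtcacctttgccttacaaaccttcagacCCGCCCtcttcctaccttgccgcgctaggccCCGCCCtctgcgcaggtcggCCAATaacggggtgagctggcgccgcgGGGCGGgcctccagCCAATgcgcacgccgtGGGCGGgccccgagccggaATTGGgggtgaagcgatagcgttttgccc

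The SCD promoter held 2 CCAAT and 2 GC boxes, and that of LPCAT3, which moved the other way, held 3 and 5. The FADS2 window held 1 GC box and 0 CCAAT boxes, and the window before the other FADS2 start held 0 of both. Promoters were found for 7 of the 8 genes (11 windows), FASN being without an entry. A CCAAT box was in 7 of the 11 windows and a GC box in 8, while 32% and 42.6% of all 35116 promoter windows in the table held one; windows of 1 gene can overlap. The sterol response element core TCACNCCAC was in 0 of the 11 windows and in 0.883% of all windows. Only matches to this string inside the windows were counted. Other forms of the element, or elements elsewhere, would be missed, so the count does not show that these genes lack one. The E-box CACGTG, which SREBP1 can also bind, was in the window of ELOVL5 and in 6.34% of all windows, and the hexamer AGGTCA, 1 unit of the paired sites of many nuclear receptors, was in 1 window each of ELOVL6 and ACACA and in 12.1% of all windows. All motifs were searched on both strands.

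The arrays share a few features that bear on these values. Vehicle replicate 3 stood apart: it correlated with the others at 0.979 to 0.988 across probe sets, against 0.992 to 0.997 among the rest, and its background probe sets rich in G and C averaged a log2 value of 7.82, against 7.27 to 7.37. Among markers fixed for the line, the epithelial keratins KRT7, KRT8 and KRT18 and the mesenchymal filament VIM were bright in vehicle (log2 means of 11.97, 12.10, 11.89 and 12.74), and 13 of the 16 markers exceeded background in a group, taken as log2 values up to 5.21, the 95th percentile over negative control probe sets. E-cadherin (CDH1) and the uroplakins UPK1B and UPK3A did not, while the uroplakins UPK1A (5.98 in vehicle and 5.79 with ox-LDL) and UPK2 (6.61 and 6.41) did. None of the 16 passed in limma (2 at an unadjusted p under 0.05, and 2 passing without vehicle replicate 3), and the log2 of their summed level ran from 14.36 to 14.43 in vehicle and from 14.47 to 14.50 with ox-LDL. Unadjusted p-values under 0.05 were frequent over the array: in limma, LPCAT1, at 0.0502, had an adjusted p of 0.192. Of 9 adipocyte and hepatocyte markers and 9 of blood and endothelial cells, 5 and 7 exceeded that background in a group. Only 21.4% of all tested probe sets stayed at or below it in both groups, so exceeding it was common for any gene. It does not by itself show expression, as the background probe sets rich in G and C averaged 7.27 to 7.82. In the first list these were SERPINA1, APOA1, LEP, TTR and PLIN1, while ADIPOQ, CIDEC, ALB and APOB stayed within background. In the second they were CD68, CD14, VWF, CDH5, ITGAM, PECAM1 and CD3E, while PTPRC and LYZ stayed within it. The brightest in vehicle were SERPINA1 (log2 mean 8.98) and CD68 (8.07). The log2 of the summed level of the adipocyte and hepatocyte list ran from 9.86 to 10.07 in vehicle and from 9.59 to 9.75 with ox-LDL, that of the blood and endothelial list from 9.66 to 10.04 and from 9.63 to 9.65, and no member of either passed (1 and 2 at an unadjusted p under 0.05); their part in the results was not tested.

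**Figure D1:**
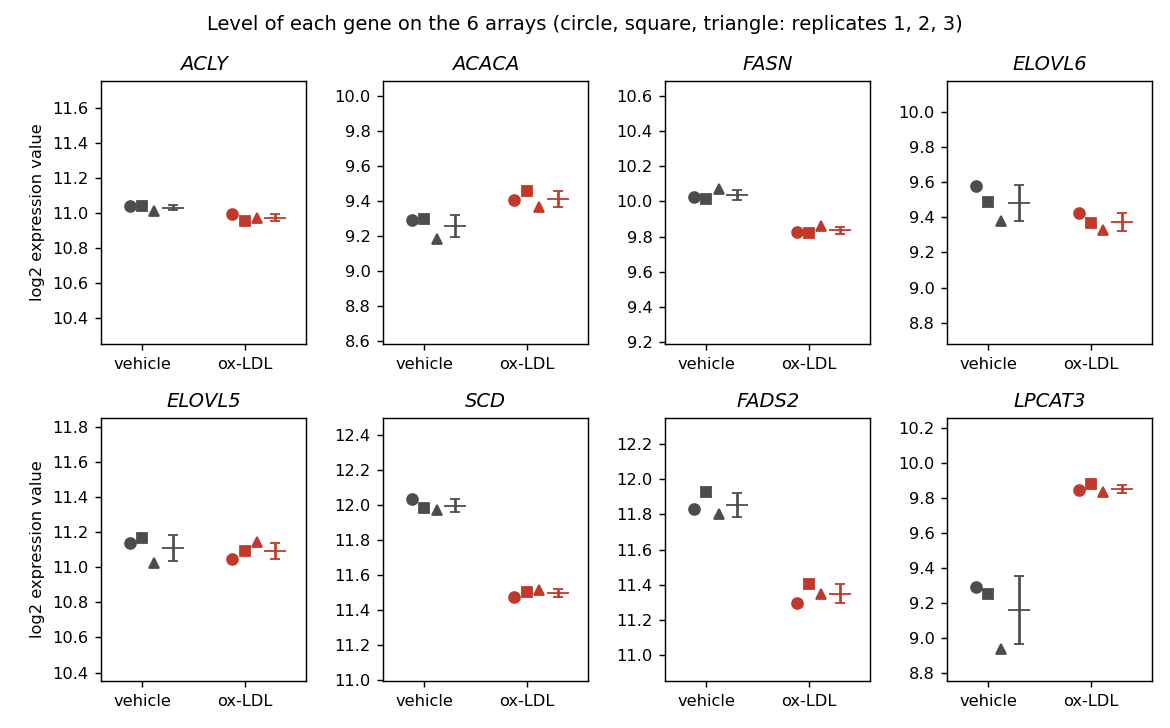
Log2 expression value (vertical axis, a span of 1.5 in every panel) of the 8 genes on the 3 vehicle arrays (grey) and the 3 ox-LDL arrays (red). The circle, square and triangle are replicates 1, 2 and 3, and the bars give the mean and SD of a group. The groups are far apart for SCD, FADS2 and LPCAT3, and for LPCAT3 vehicle replicate 3 is lowest.

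SCD, the stearoyl-CoA desaturase that makes oleate and palmitoleate, measured 12.04, 11.98 and 11.97 (log2) with vehicle and 11.47, 11.50 and 11.51 with ox-LDL. All ox-LDL arrays were below all vehicle arrays, with a gap of 0.46 between the nearest values. Its mean went from 12.00 ± 0.04 to 11.50 ± 0.02 (SD, n = 3 each), a log2 difference of -0.50 (SE 0.07, 95% confidence interval -0.66 to -0.34, limma adjusted p = 0.00927). This change was larger in size than that of 93.6% of all probe sets.

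FADS2, the desaturase that opens the conversion of dietary linoleic and linolenic acid to long polyunsaturated chains, had log2 values of 11.83, 11.93 and 11.80 with vehicle and 11.30, 11.40 and 11.35 with ox-LDL. The groups did not overlap, and the gap between them was 0.40. The log2 difference was -0.51 (SE 0.07, 95% confidence interval -0.68 to -0.33, limma adjusted p = 0.0125), between means of 11.85 ± 0.07 and 11.35 ± 0.05 (SD, n = 3 each). The reference gene table places FADS2 and FADS1 on overlapping stretches of opposite strands, and the sources used here do not say which transcripts the FADS2 probes read there.

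LPCAT3 measured 9.29, 9.25 and 8.94 (log2) with vehicle and 9.85, 9.88 and 9.83 with ox-LDL. The ox-LDL arrays were all higher and close together, and the vehicle arrays were spread by the low replicate 3. The mean rose from 9.16 ± 0.19 to 9.85 ± 0.02 (SD, n = 3 each), a log2 difference of 0.69 (SE 0.11, 95% confidence interval 0.44 to 0.94, limma adjusted p = 0.0142), larger in size than that of 97.6% of all probe sets. Without vehicle replicate 3 the difference was 0.58 (adjusted p = 0.00423), and with an unmoderated t statistic the call was lost (adjusted p = 0.0584). LPCAT3 overlaps EMG1, a ribosome biogenesis gene on the other strand, whose own probe set was not called (log2 difference 0.02, SE 0.08, adjusted p = 0.871). The design text of the series selects genes with p no higher than 0.001 whose fold change reaches 1.5; applied to the unadjusted limma p, LPCAT3 was the one gene of the 8 to meet it.

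Whether these 3 genes passed differed with the array left out, and the cause was not tested. With any 1 vehicle array left out, 3 genes passed, where 3.76%, 3.35% and 12.4% of all probe sets passed without vehicle replicates 1, 2 and 3. With ox-LDL replicate 1, 2 or 3 left out, 0 passed in limma, where 1.44%, 1.42% and 1.56% of all probe sets passed. In these fits with 5 arrays the log2 differences ranged from -0.51 to -0.48 for SCD, from -0.53 to -0.47 for FADS2 and from 0.58 to 0.76 for LPCAT3, and their largest adjusted p-values were 0.0637, 0.0775 and 0.0806.

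**Figure D2:**
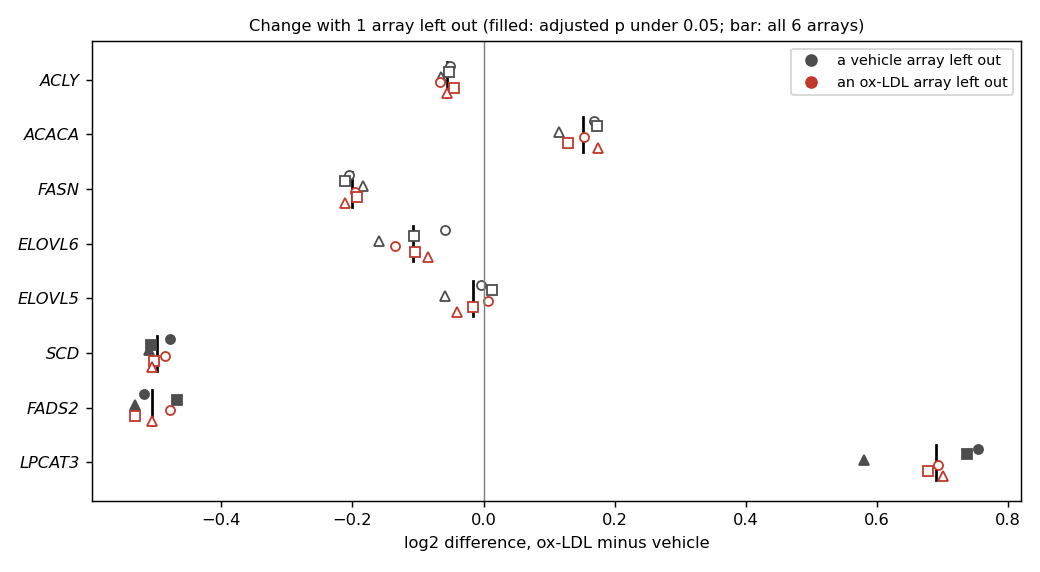
Log2 difference, ox-LDL minus vehicle (horizontal axis), of each gene when 1 array is left out: circle, square and triangle for replicates 1, 2 and 3, grey for a vehicle and red for an ox-LDL array. Filled marks have an adjusted p under 0.05, and the black bar is the value with all 6 arrays. All marks of SCD and FADS2 lie between -0.53 and -0.47, and filled marks occur when a vehicle array is left out.

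FASN, the synthase that builds palmitate, had log2 values of 10.03, 10.02 and 10.07 with vehicle and 9.83, 9.82 and 9.86 with ox-LDL. The ox-LDL arrays were all lower, by a gap of 0.16, and each group was tight (10.04 ± 0.03 and 9.84 ± 0.02, SD, n = 3 each). FASN was not called, at a log2 difference of -0.20 (SE 0.07, limma adjusted p = 0.119) whose 95% confidence interval ran from -0.36 to -0.04. The call differed between fits, and the cause was not tested. FASN passed when only probe sets above the median level were tested (adjusted p = 0.0307; 24.3% of those probe sets passed), with an intensity trend and robust fit (0.0323; 12.4%), with array weights (0.0460; 18.5%) and with an unmoderated t statistic (0.0254; 5.07%).

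ACLY, which makes the cytosolic acetyl-CoA for lipid synthesis, had log2 values of 11.04, 11.04 and 11.01 with vehicle and 10.99, 10.95 and 10.97 with ox-LDL. The groups lay apart by 0.02, and the difference of -0.06 (SE 0.07, adjusted p = 0.597) had a 95% confidence interval of -0.21 to 0.10. ACACA, the acetyl-CoA carboxylase of the cytosol, had values of 9.29, 9.30 and 9.18 with vehicle and 9.41, 9.46 and 9.37 with ox-LDL. All its ox-LDL arrays were higher, but it was not called, at a difference of 0.15 (SE 0.07, limma adjusted p = 0.235) with a 95% confidence interval from -0.02 to 0.32.

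Both elongases had overlapping groups. ELOVL6 had log2 values of 9.58, 9.49 and 9.38 with vehicle and 9.43, 9.37 and 9.33 with ox-LDL, a difference of -0.11 (SE 0.08, 95% confidence interval -0.30 to 0.08, limma adjusted p = 0.420), which was -0.16 without vehicle replicate 3 and -0.06 without vehicle replicate 1. ELOVL5 had values of 11.14, 11.17 and 11.03 with vehicle and 11.05, 11.09 and 11.14 with ox-LDL, a difference of -0.02 (SE 0.07, 95% confidence interval -0.19 to 0.16, adjusted p = 0.904), whose sign turned in 3 of 15 alternative fits. Some of the 15 fits alter only the test and leave the difference as it is. Of the 8 genes, 6 had groups that did not overlap, against 36.8% of all probe sets; 4 of the 6 were lower and 2 higher with ox-LDL, and the remaining 2 genes were the elongases.

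**Figure D3:**
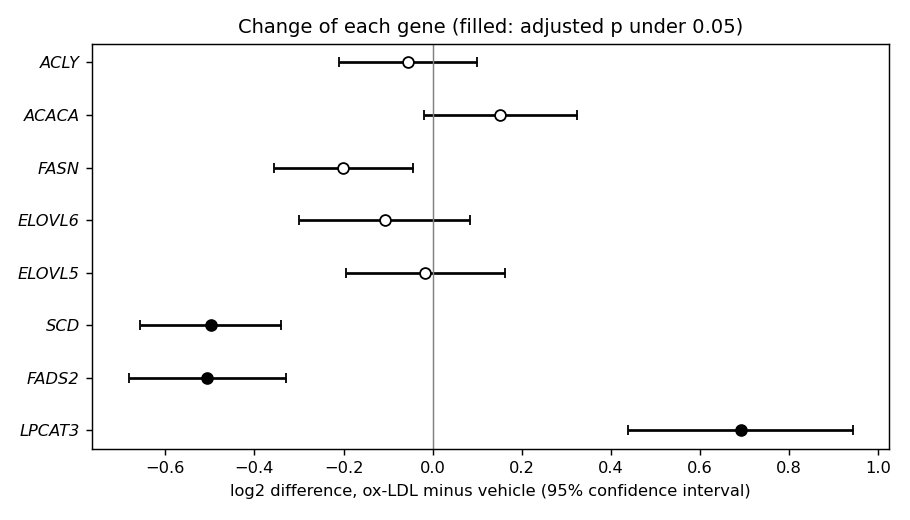
Log2 difference, ox-LDL minus vehicle (horizontal axis), with the 95% confidence interval from limma for each gene, in the order of the pathway. Filled points have an adjusted p under 0.05. SCD and FADS2 lie near -0.50, LPCAT3 at 0.69, and the 5 open points lie between -0.20 and 0.15.

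Whether the genes of a pair changed unequally was asked within arrays for 3 pairs. The p-values are from two-sided exact permutation tests over the arrays. With 3 against 3 these can give no p below 0.10, so none could pass. The log2 value of LPCAT3 minus that of SCD was -2.83 ± 0.17 in vehicle and -1.64 ± 0.03 with ox-LDL (SD, n = 3 each), a shift of 1.19 (exact permutation p = 0.10, adjusted p = 0.15). ACLY minus ACACA went from 1.77 ± 0.05 to 1.56 ± 0.06 (SD, n = 3 each), a shift of -0.21 (exact permutation p = 0.10, adjusted p = 0.15). ELOVL5 minus ELOVL6 went from 1.63 ± 0.07 to 1.72 ± 0.10 (SD, n = 3 each), a shift of 0.09 (exact permutation p = 0.30, adjusted p = 0.30).

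Of 20 measured regulators of SREBP and LXR, INSIG1, the sterol-responsive anchor of SREBP proteins in the endoplasmic reticulum and itself an SREBP target, fell by 0.98 on the log2 scale (SE 0.07, limma adjusted p = 0.00126), and 19 did not pass. SREBF1 had log2 values of 9.31, 9.28 and 9.66 with vehicle and 9.30, 9.46 and 9.37 with ox-LDL. Its groups overlapped and its difference was -0.04 (SE 0.12, adjusted p = 0.843), or 0.08 without vehicle replicate 3. SREBF2, the gene of SREBP2, had a difference of -0.34 (SE 0.09, adjusted p = 0.0804; 0.0210 to 0.0293 with an intensity trend, array weights or only the brighter probe sets), and NR1H3, which encodes LXRα, one of -0.29 (SE 0.14, adjusted p = 0.246), or -0.14 without vehicle replicate 3. No probe set carried the symbol of NR1H2, which encodes LXRβ.

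Over 8 lists of related genes, the regulators included, 8 of 104 measured genes passed (7.69%), close to the 6.77% of all probe sets. Among them were 2 relatives of the enzymes described above, while FADS3, LPCAT1, LPCAT2, LPCAT4 and the 4 other measured ELOVL genes were not called. Of the genes not called, LPCAT2, ELOVL2 and ELOVL3 were within background in both groups, which limits what could be seen there. LPCAT1 differed by 0.51 on the log2 scale (limma adjusted p = 0.192), or by 0.24 without vehicle replicate 3. SCD5, the other stearoyl-CoA desaturase of human cells, rose by 0.52 on the log2 scale (SE 0.09, limma adjusted p = 0.0171), from 8.56, 8.34 and 8.34 with vehicle to 8.92, 8.96 and 8.93 with ox-LDL. ACACB, the acetyl-CoA carboxylase of the mitochondrial surface, rose by 0.60 (SE 0.13, adjusted p = 0.0395), from 5.72, 6.04 and 5.68 to 6.26, 6.56 and 6.41. In both, all ox-LDL arrays were higher. The SCD5 call was lost without vehicle replicate 2 (adjusted p = 0.0609) or ox-LDL replicate 1, 2 or 3 (0.0862, 0.0963 and 0.0887), and that of ACACB without any 1 array other than vehicle replicate 2 (0.0511 to 0.156). The shift of SCD5 against SCD within arrays was 1.02 and that of ACACB against ACACA 0.45, each at the smallest p of the test (exact permutation p = 0.10, adjusted p = 0.125 over 5 pairs), and these 2 pairs were chosen after their values were seen.

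Among the other desaturases and their electron carriers, 10 genes, SCD5 rose, the cytochrome b5 reductase gene CYB5R2 fell by 0.43 (SE 0.09, limma adjusted p = 0.0420) and 8 did not pass. Of 8 other elongases and enzymes of the elongation cycle, HACD4, one of the dehydratases of the cycle, rose by 0.41 (SE 0.07, adjusted p = 0.0171) while 7 were not called, among them HACD2 (log2 difference 0.27, adjusted p = 0.0643; 0.00272 to 0.0449 in 5 alternative fits). Of 7 further genes around fatty acid synthase, including the mitochondrial route, ACACB rose and 6 did not pass, among them MECR (0.36, adjusted p = 0.114). None of 8 genes that supply citrate, acetyl-CoA and NADPH passed in limma, with 3 at an unadjusted p under 0.05. Such unadjusted p-values were frequent over the array, so this count by itself shows no excess. The pentose phosphate enzyme PGD differed by -0.27 (adjusted p = 0.108) and the NADP-dependent dehydrogenase IDH1 by -0.25 (adjusted p = 0.141), on the log2 scale. Without vehicle replicate 3, 2 of these 8 passed as lower: IDH1, and ACSS2, which makes acetyl-CoA from acetate. ACSS2, named after its values were seen, read 8.18, 8.29 and 7.19 with vehicle and 7.33, 7.39 and 7.34 with ox-LDL, a log2 difference of -0.53 (adjusted p = 0.263), or -0.88 without that array (adjusted p = 0.00231).

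Of 13 other enzymes of phospholipid remodelling, the phospholipase A gene PLA2G12A rose by 0.45 (SE 0.10, limma adjusted p = 0.0434) and 12 did not pass, among them LPCAT4, an acyltransferase related to LPCAT3 in function (log2 difference 0.23, adjusted p = 0.173). Of 26 genes of glycerolipid and phospholipid synthesis, AGPAT1, which acylates lysophosphatidic acid, rose by 0.35 (SE 0.08, adjusted p = 0.0470), LPIN2, a phosphatidate phosphatase, fell by 0.38 (SE 0.08, adjusted p = 0.0381), while 24 were not called. None of the 12 other acyl-CoA synthetases passed in limma, and 0 had an unadjusted p under 0.05; the smallest p-values were those of ACSBG1 and SLC27A5 (log2 differences -0.21 and -0.37), of which ACSBG1 was within background in both groups. Without vehicle replicate 3 the difference of SLC27A5 was -0.18, and without ox-LDL replicate 1 that of ACSBG1 was -0.14. With any 1 ox-LDL array left out, none of the genes of these 8 lists, from the regulators on, passed in limma apart from INSIG1. Of the calls in this paragraph and the one before, HACD4, CYB5R2, AGPAT1 and LPIN2 were held without vehicle replicate 3 and lost without any other 1 array, and PLA2G12A was lost without vehicle replicate 2 (adjusted p = 0.108) and held without the other 2 vehicle arrays. Scaling also ended calls: AGPAT1 was lost with a second quantile normalization and with cyclic loess (adjusted p = 0.0731 and 0.0742), PLA2G12A with a second quantile normalization (0.0501) and LPIN2 with equal array medians (0.0516). With an unmoderated t statistic, ACACB, CYB5R2, PLA2G12A, LPIN2 and AGPAT1 were lost (adjusted p from 0.0594 to 0.115).

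The genes of cholesterol synthesis and uptake, the branch governed mainly by SREBP2, were nearly all lower in the same fit: of 15 measured, 14 fell and 1 did not pass, with a median log2 difference of -0.63. SQLE, the squalene epoxidase, fell by 0.97 (SE 0.07) and HMGCS1, which makes the precursor of mevalonate, by 1.37 (SE 0.10). With any 1 ox-LDL array left out, 6 of these 15 passed as lower, against 0 of the 8 fatty acid genes. In those fits 1.42% to 1.56% of all probe sets passed, and SCD and FADS2 still differed by -0.49 to -0.51 and by -0.48 to -0.53. Of 10 measured LXR targets outside fatty acid synthesis, the cholesterol exporter ABCA1 rose by 2.17 (SE 0.08, limma adjusted p = 0.000159) and 9 did not pass, with a median of -0.11 for the list. Only 7 of the 10 exceeded background in a group: ABCG1, ABCG5 and ABCG8 were within it in both, which limits what could be seen there. The apolipoprotein gene APOC1 differed by -0.33 (adjusted p = 0.0831). The differences between these lists were not tested.

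**Figure D4:**
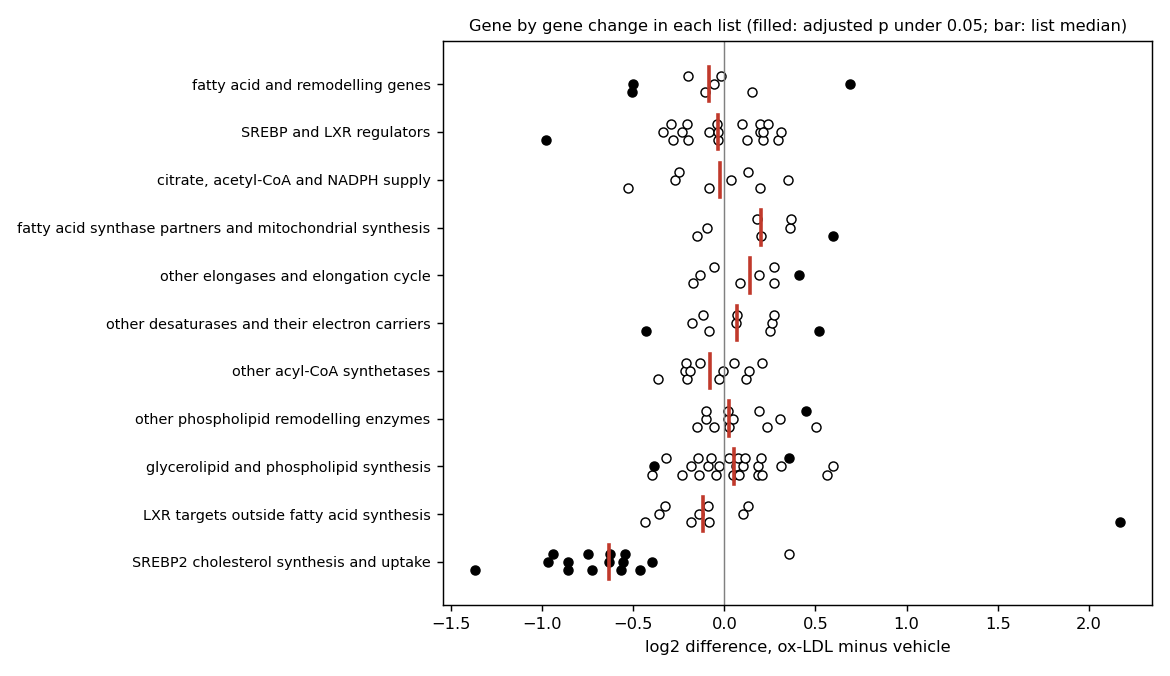
Log2 difference, ox-LDL minus vehicle (horizontal axis), of each measured gene in the fatty acid genes described here (top) and in 10 lists of related genes. Each point is 1 gene, filled where the adjusted p is under 0.05, and the red bar is the median of a list. The fatty acid genes lie on both sides of 0 with a median of -0.08, while 14 of the 15 genes of cholesterol synthesis and uptake are filled and below 0.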

How the data were processed

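Total RNA of 6 T24 samples was labelled and hybridised to single-colour arrays. Values are log2 expression as deposited by the authors, who used RMA per the submitters' processing notes; for its version, and for any build or annotation, the sources used here give nothing. RMA makes arrays alike in distribution, so a change in total RNA per cell cannot be seen, and understates changes of dim genes. Of 24350 rows, 2902 control probe sets were left out; 17709 of the 21448 tested had 1 platform symbol, 0 had several and 3739 had none. Fewer cells of a kind and less RNA per cell cannot be told apart.

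One model (limma 3.58.1, R 4.3.3) of ox-LDL minus vehicle was fitted to all 6 arrays, with Benjamini-Hochberg adjustment over 21448 probe sets and calls under 0.05; errors are SD over arrays or limma's SE. The script was tested on simulated data. For arrays no depth applies, and their number limits precision. The genes and lists were chosen with earlier results of these data known. Named are the 8 genes, SREBF1, SREBF2 and NR1H3, and the 2 genes of smallest p in each pathway list; genes with several probe sets use the brightest. Same-numbered arrays of the 2 groups were checked for pairing (correlations of deviations -0.01, 0.03 and 0.02), and numbers were not taken to pair them. A planned pair with FADS1 could not be fitted. Figures used matplotlib 3.10.9.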

Additional observations from a re-analysis of the deposited data

How the results depend on the processing

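The number of the 8 genes that passed was 3 with equal array medians, a second quantile normalization and cyclic loess, 4 with only the brighter probe sets, an intensity trend or array weights, where FASN was added, 3 with an unmoderated t statistic, where FASN was added and LPCAT3 lost, and 1 at an adjusted p under 0.01 (SCD), 1 by the study's stated selection (LPCAT3) and 1 with the replicate number as a block (LPCAT3, adjusted p = 0.0439; SCD 0.0552 and FADS2 0.0525), although the numbers do not pair the arrays. Leaving out 1 array gave 0 to 3. Apart from ELOVL5, the 8 genes kept their direction in 15 of 15 alternative fits, but many of these could not turn it. Testing only the brighter probe sets, an intensity trend, an unmoderated t statistic and the replicate block leave the difference unchanged. So does averaging probe sets, as each gene had 1. Leaving out 1 array cannot turn the direction where the groups do not overlap. Over the whole array, 1451 of 21448 probe sets passed (6.77%), against 1424 with equal array medians, 1414 with a second quantile normalization and 1470 with cyclic loess. Of the 10724 probe sets above the median level, 2608 passed (24.3%). With an intensity trend 2649 passed (12.4%), with array weights 3962 (18.5%) and with an unmoderated t statistic 1087 (5.07%). There were 550 with the replicate block, 382 at an adjusted p under 0.01, 496 by the study's selection, and 305 to 2670 with 1 array left out. Apart from the stricter thresholds, the causes of these shifts were not tested. Equal array medians and the replicate block cannot alter a within-array shift. Leaving out 1 array cannot turn its sign where the groups do not overlap, so these fits are no check of direction there. A second quantile normalization and cyclic loess could alter the 5 shifts, and none changed sign. ACACB against ACACA was 0.62 with cyclic loess. With 1 array left out, LPCAT3 against SCD ran from 1.09 to 1.24. ELOVL5 against ELOVL6, whose groups overlapped, ran from 0.04 to 0.14. Low values near the negative controls, as for ACSBG1, LPCAT2, ELOVL2, ELOVL3, ABCG1, ABCG5 and ABCG8, limit what could be seen there.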
